A study of Mus musculus with 4 samples.

Results

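Lysine acetylation of histones is written by acetyltransferases, read by bromodomain proteins and erased by deacetylases. The 35 mouse genes described here belong to these classes or to related families and complexes. They were taken by symbol from a table of 23275 gene entries, and all 35 had an entry and were tested by the authors. They comprise 9 writers, 11 bromodomain readers, 5 readers of the ING family, 7 sirtuins and 3 scaffolds of deacetylase complexes. Their levels were compared between wild-type and Hdac3-deleted cells from C57BL/6 mouse bone marrow, sorted as B220+CD43+, a surface phenotype of early B-lineage cells. Hdac3-deleted mice were Hdac3F/-Mb1cre+/-, with 1 conditional and 1 null allele. Wild-type mice were Hdac3+/+Mb1cre+/-, so both genotypes carried Mb1-cre, a recombinase that is switched on early in the B lineage. Mice were 8 weeks old, and each genotype had 2 polyadenylated RNA libraries, each from a pool of 2 mice. In the Hdac3-deleted group, cells of the gate without Mb1-cre keep the conditional allele beside the null one.

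Acetyltransferases move an acetyl group from acetyl-CoA to lysines of histones and other proteins, and bromodomains bind the acetylated lysine. Hdac3 is a zinc-dependent deacetylase that acts within the NCoR and SMRT corepressor complexes. The sirtuins are a separate family of deacylases that consume NAD. Writers such as Ep300 and Crebbp are coactivators of many transcription factors, and both genes are recurrently mutated in human B-cell lymphomas.

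Values are the authors' FPKM (fragments per kilobase of exon model, corrected for how many fragments a library held), 1 per gene and genotype, which combine the 2 libraries. No spread between libraries and no library depth is known, so whether the libraries of the genotypes overlap cannot be seen. A gene is called changed where the authors' deposited table gives a Cuffdiff q-value, a p-value adjusted for multiple testing over 12683 tested entries, under 0.05. Hdac3 itself stood at 47.1% of its wild-type level, 22.0 against 46.8 FPKM (q = 0.0016). The Hdac3-deleted mice also carried 1 null allele, so this level does not show how far the conditional allele was deleted. All 14 B-lineage markers were present, at 62.7 to 834 FPKM. Genes listed as markers of other cells were present too. In wild-type and Hdac3-deleted cells, 12 plasmacytoid dendritic cell markers summed to 3046 and 3913 FPKM and 19 myeloid markers to 11412 and 3245 FPKM. The first list included Ly6d, Bst2 and Irf8, at 721, 578 and 514 FPKM in wild-type cells. Listed genes need not be confined to 1 cell type, so the sums do not measure how many other cells the gate held. Of the smaller marker lists, 4 of 7 basophil, 3 of 8 plasma cell and 1 of 7 erythroid genes were called lower. Called higher were 2 of 14 genes of T, NK and innate lymphoid cells. Over all tested entries, 4.14% were called lower and 2.81% higher. The plasma cell list had 4 positive and 4 negative fold changes, and summed to 699 and 688 FPKM in wild-type and Hdac3-deleted cells. The erythroid list had 3 positive and 4 negative fold changes. All values therefore describe the whole sorted population, in which fewer cells of a type and less RNA per cell cannot be told apart.

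Of the 35 acetylation genes, 2 were called changed between the genotypes. Brd2, a bromodomain reader of the BET family, rose 1.61-fold in Hdac3-deleted cells, and Hat1, an acetyltransferase for newly made histone H4, fell to 66.8% of the wild-type level. The other 33 genes did not pass the authors' test. The 2 called genes are 5.71% of the 35, against 6.95% of all tested entries and 6.37% of the entries with a mean of at least 3 FPKM, a level that all 35 reached. The share called among the acetylation genes was therefore near the background. Called entries that were higher made up 2.81% of all tested entries, and called entries that were lower 4.14%.

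The typical difference was small in size. Hdac3-deleted values were higher for 22 of the 35 genes, and the median log2 fold change was 0.03 for them and 0.03 for the 12643 tested entries with a finite fold change. The median absolute log2 fold change was 0.15, beside 0.19 for the 9909 such entries with a mean of at least 3 FPKM. An unadjusted p under 0.05 was found for 3 genes, Brd2, Hat1 and Crebbp, which is 8.57% of the 35 against 17.1% of those 12643 entries. For each gene a 95% interval was derived from the fold change and the authors' test statistic. The interval lay wholly inside a 2-fold change in either direction for 31 of the 35 genes, and reached past it for Brd2, Crebbp, Sirt3 and Sirt4. Neither failing the test nor a narrow interval shows that a gene was unaffected in the B-lineage cells of the gate.

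**Figure D1:**
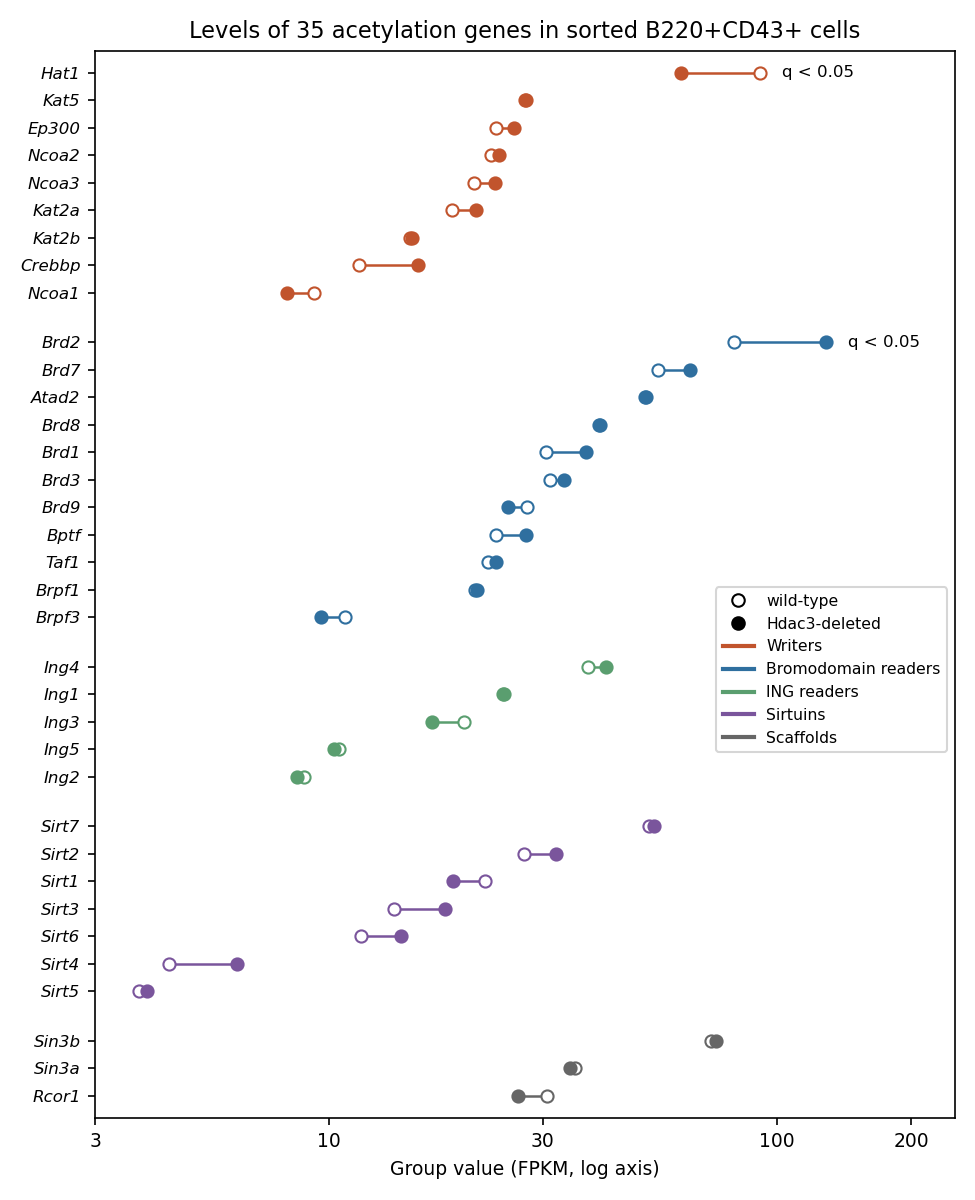
Group values of the 35 genes in FPKM on a log axis, by class, with 1 open circle for wild-type and 1 filled circle for Hdac3-deleted cells per gene. The circles lie farthest apart for Brd2, 80.3 and 129 FPKM, and Hat1, 91.6 and 61.1 FPKM, and nearly coincide for Kat5, Atad2 and Ing1.

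The upstream sequences of Hat1 and Brd2 are shown because these were the called genes. Both come from RefSeq (build GRCm38.p6), give the 250 bases before the annotated start that matches the end of the deposited locus, and read 5′ to 3′ on the strand of the gene. The Hat1 window is chr2:71389010-71389259 on the plus strand, and the Brd2 window is chr17:34122608-34122857 on the minus strand. Capitals mark matches on either strand to 4 motifs chosen after the sequences were seen. The motifs were CCAAT, the letters bound by NF-Y, then CACGTG, an E-box bound by factors such as Myc, then CCGGAAG, a core bound by ETS factors, and CATGCGC, part of the site of Nrf1.
Hat1: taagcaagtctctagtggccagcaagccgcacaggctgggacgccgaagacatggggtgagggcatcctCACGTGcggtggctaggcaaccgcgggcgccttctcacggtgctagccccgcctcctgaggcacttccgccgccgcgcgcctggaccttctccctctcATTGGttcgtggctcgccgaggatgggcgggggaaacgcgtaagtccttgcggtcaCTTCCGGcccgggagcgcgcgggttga
Brd2: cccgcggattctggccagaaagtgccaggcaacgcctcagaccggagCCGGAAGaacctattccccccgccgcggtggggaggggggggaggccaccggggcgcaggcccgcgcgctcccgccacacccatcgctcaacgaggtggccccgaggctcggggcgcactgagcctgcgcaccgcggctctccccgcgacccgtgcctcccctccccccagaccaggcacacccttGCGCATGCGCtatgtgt
The Hat1 window held a match to each of the first 3 motifs and none to CATGCGC. The Brd2 window held CCGGAAG once, and CATGCGC on both strands in overlapping matches between 17 and 8 bases before the start. Of 32851 RefSeq promoter windows of the same length, CCAAT was in 33.8%, CACGTG in 6.02%, CCGGAAG in 6.91% and CATGCGC in 3.24%. RefSeq promoters were found for 31 of the 35 genes, and 19 of these had a window at the end of the deposited locus. Of those 19 windows, 9 held CCAAT, 3 CACGTG, 5 CCGGAAG and 1 CATGCGC. Both called genes have CpG-rich windows, each with 27 CG pairs beside a median of 6 over all windows. CG pairs were not summarised apart for the uncalled genes, so this trait is not shown to be particular to the called ones. The RNA data hold no measure of binding at these sites.

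Of the 9 writers, 1 fell, 0 rose and 8 did not pass the test. Hat1, on chromosome 2 from position 71389260 to 71441622 of mm10, was 91.6 FPKM in wild-type against 61.1 FPKM in Hdac3-deleted cells. Hat1 acetylates histone H4 together with its partner Rbbp7 before the histone enters chromatin. Its log2 fold change was -0.58 (95% interval -0.97 to -0.19, q = 0.0331 in the authors' deposited table). It was the most abundant writer in both genotypes, above 90.0% of all tested entries in mean level. The ratio of its level to that of Kat5, the next writer in order, was 3.32 in wild-type against 2.23 in Hdac3-deleted cells. Rbbp7, named here for this partnership, stood at 157 and 128 FPKM (q = 0.673).

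Cell-cycle transcripts were lower in the same comparison as Hat1. Of 24 cell-cycle genes, 10 fell and 0 rose, their median log2 fold change was -0.51, and their summed level was 3554 FPKM in wild-type against 2623 FPKM in Hdac3-deleted cells, with none listed at 0. Of 19 myeloid markers, 13 were called lower and 1 higher, with a median of -1.91. Over all tested entries, 4.14% were called lower. The 14 B-lineage and 12 plasmacytoid dendritic cell markers all had positive fold changes. With 1 value per genotype, a shared direction does not show that genes vary together. The part of any of these lists in the Hat1 difference was not tested.

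Ep300 and Crebbp, the paired coactivators p300 and CBP, were both present. Ep300 was 23.6 FPKM in wild-type against 25.9 FPKM in Hdac3-deleted cells, a log2 fold change of 0.13 (95% interval -0.45 to 0.71). Crebbp was 11.7 and 15.8 FPKM, a log2 fold change of 0.44 (-0.18 to 1.05). Crebbp had an unadjusted p of 0.0245 but did not pass after adjustment (q = 0.19). Ep300 was the more abundant of the pair, with a ratio of 2.02 in wild-type against 1.64 in Hdac3-deleted cells, and the difference between these ratios was not tested.

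Kat2a and Kat2b are alternative catalytic subunits of the SAGA and ATAC coactivator complexes. Kat2a was 18.8 and 21.3 FPKM in wild-type and Hdac3-deleted cells, and Kat2b was 15.2 and 15.3 FPKM, a ratio of 1.24 in wild-type and 1.39 after deletion. Kat5, the Tip60 enzyme of the NuA4 complex, was 27.6 and 27.4 FPKM, with a 95% interval of -0.59 to 0.57 on the log2 scale. In the reference annotation Kat5 shares 426 exon bases with the opposite-strand gene Rnaseh2c, whose values were 48.7 and 37.9 FPKM, and the sources used here do not say whether the libraries kept strand.

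The steroid receptor coactivators Ncoa1, Ncoa2 and Ncoa3 bind nuclear receptors that NCoR and SMRT also bind. Ncoa2 was 23.0 and 24.0 FPKM and Ncoa3 21.1 and 23.5 FPKM in wild-type and Hdac3-deleted cells. Ncoa1 was the least abundant writer, at 9.25 and 8.03 FPKM. None of the 3 passed the test, and their intervals together ran from -0.75 to 0.70 on the log2 scale.

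Of the 11 bromodomain readers, 1 rose, 0 fell and 10 did not pass the test, and the median log2 fold change was 0.06. The 1 called gene is 9.09% of these readers, beside 6.95% of all tested entries. Brd2, on chromosome 17 from position 34112019 to 34122607 of mm10, was 80.3 FPKM in wild-type against 129 FPKM in Hdac3-deleted cells. BET proteins such as Brd2 bind acetylated histones through tandem bromodomains and promote transcription. Its log2 fold change was 0.68 (95% interval 0.07 to 1.30, q = 0.026 in the authors' deposited table). It was the most abundant of the 35 genes in Hdac3-deleted cells and was second to Hat1 in wild-type cells. In the reference annotation Brd2 shares 360 exon bases with the opposite-strand gene H2-DMa, whose values were 106 and 139 FPKM (q = 0.265). The deposited loci of these genes do not overlap. Whether the libraries kept strand is not stated, and the part of the shared bases in the Brd2 difference was not tested.

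Brd3, another BET gene, did not pass the test. It was 31.2 and 33.5 FPKM in wild-type and Hdac3-deleted cells, a log2 fold change of 0.10 (-0.45 to 0.66). The ratio of Brd2 to Brd3 was 2.57 in wild-type against 3.85 in Hdac3-deleted cells, and the difference between these ratios was not tested. In the same comparison 6 of 14 B-lineage markers were called higher, beside 2.81% of all tested entries, and 0 lower. Their summed level was 2744 and 4314 FPKM. All 12 plasmacytoid dendritic cell markers had positive fold changes, with a median of 0.40, although none passed Cuffdiff's test or the normal approximation and 3 had an unadjusted p under 0.05. None of these 26 markers was listed at 0. All 24 cell-cycle genes and 17 of 19 myeloid markers had negative fold changes. The part of any of these lists in the Brd2 difference was not tested.

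Both calls were close to the threshold. At a q under 0.01, which 4.21% of all tested entries met, neither Brd2 nor Hat1 was called. With p-values recomputed from the authors' test statistic by a normal approximation, which called 3.71% of entries, q was 0.366 for Brd2 and 0.0779 for Hat1.

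**Figure D2:**
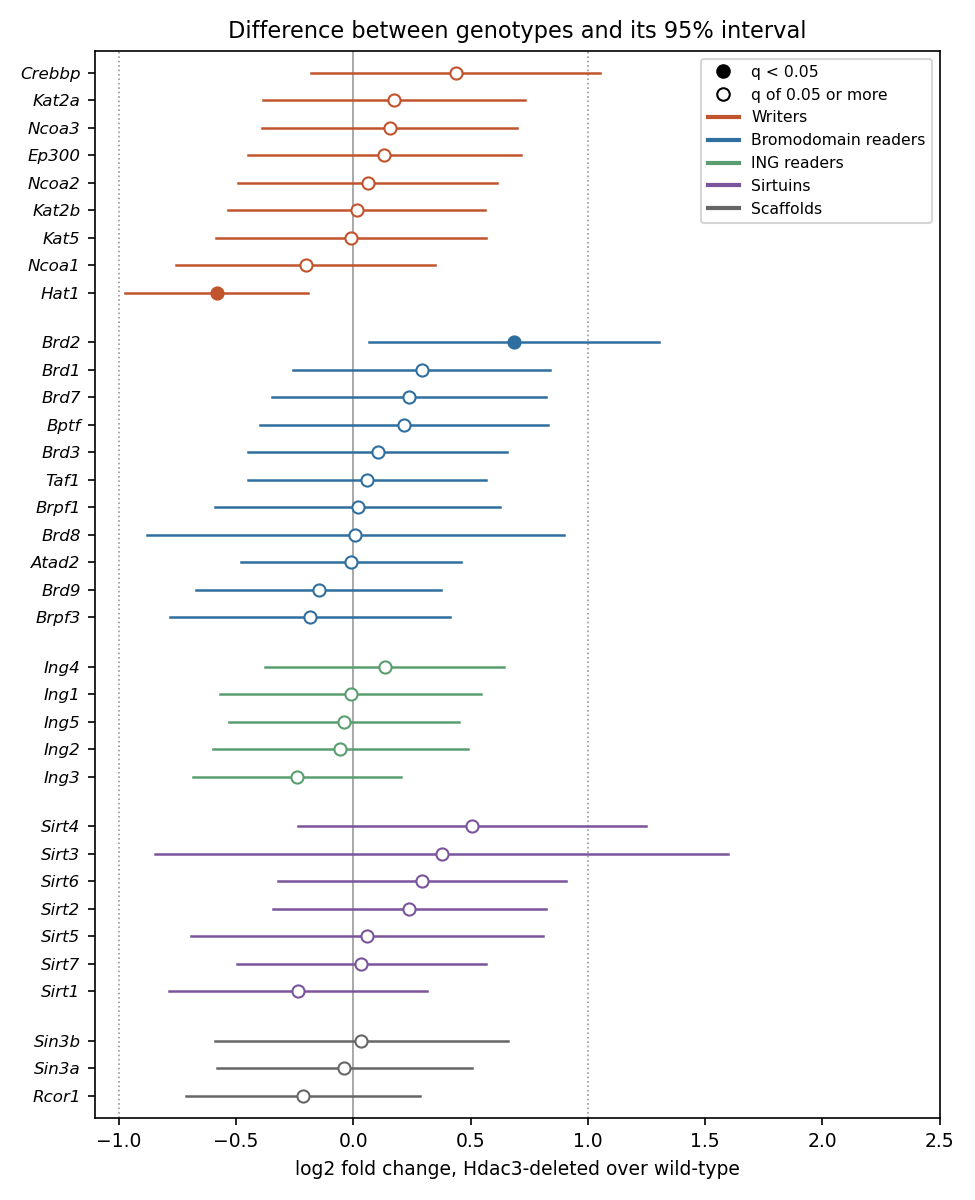
Log2 fold change of each of the 35 genes, Hdac3-deleted over wild-type, by class, with the 95% interval derived from the authors' test statistic and dotted lines at a 2-fold change. Filled points mark the called genes Hat1, at -0.58, and Brd2, at 0.68; the widest interval is that of Sirt3, from -0.84 to 1.60.

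Brd1, Brpf1 and Brpf3 are scaffolds of the acetyltransferases Kat6a, Kat6b and Kat7. Brd1 was 30.6 and 37.5 FPKM in wild-type and Hdac3-deleted cells, Brpf1 21.1 and 21.4 FPKM, and Brpf3 10.9 and 9.58 FPKM. The 3 scaffolds thus had log2 fold changes of 0.29, 0.02 and -0.18, and none passed the test. Brd7 and Brd9 belong to different forms of the SWI/SNF remodeller, Brd7 to PBAF and Brd9 to the non-canonical complex. Brd7 was 54.3 and 63.9 FPKM and Brd9 27.7 and 25.0 FPKM, with log2 fold changes of 0.24 and -0.15.

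Bptf, the reader subunit of the NURF remodeller, was 23.6 FPKM in wild-type against 27.5 FPKM in Hdac3-deleted cells. Taf1, the largest subunit of the general factor TFIID, was 22.7 and 23.6 FPKM. Atad2, an ATPase with a bromodomain, was 51.0 and 50.7 FPKM, a log2 fold change of -0.01 (-0.48 to 0.46). Brd8, a subunit of the NuA4 complex, was 40.2 and 40.4 FPKM. The Brd8 interval of -0.88 to 0.90 was the widest among the bromodomain readers, and its deposited locus also holds Kif20a and Cdc23.

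ING proteins bind methylated histone H3 through a PHD finger and bring acetyltransferase or deacetylase complexes to it. None of the 5 ING genes was called in the authors' Cuffdiff test, beside 6.95% of all tested entries. The normal approximation also called 0, beside 3.71%. An unadjusted p under 0.05 was found for 0 of them, beside 17.1% of the 12643 tested entries with a finite fold change. Among so few genes, counts of 0 are near these shares. Ing1 and Ing2, which join Sin3 deacetylase complexes, were 24.6 and 24.4 FPKM and 8.80 and 8.48 FPKM in wild-type and Hdac3-deleted cells. Ing3, of the NuA4 complex, was 20.0 and 17.0 FPKM, with the largest difference of the family, -0.24 on the log2 scale (-0.68 to 0.20). Ing4 and Ing5, which join the Kat7 complex, were 37.8 and 41.5 FPKM and 10.5 and 10.2 FPKM. The 5 genes summed to 102 FPKM in both genotypes, and their folds ran from 0.847 to 1.10.

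None of the 7 sirtuins was called in the authors' Cuffdiff test, beside 6.95% of all tested entries. The normal approximation called 0, beside 3.71%, and 0 had an unadjusted p under 0.05, beside 17.1% of entries with a finite fold change. Among so few genes, counts of 0 are near these shares. The sirtuins' median log2 fold change of 0.24 was the highest of the 5 classes, beside 0.03 for all tested entries. Of the 7, 6 had a higher Hdac3-deleted value, as had 53.5% of the 12643 tested entries with a finite fold change. In the same comparison all 14 B-lineage markers and all 12 plasmacytoid dendritic cell markers had higher values, with medians of 0.48 and 0.40. All 24 cell-cycle genes and 17 of 19 myeloid markers had lower values. The part of any of these lists in the sirtuin values was not tested. Sirt1, the nuclear deacetylase of histones and transcription factors, was the 1 sirtuin with a lower value. It was 22.2 FPKM in wild-type against 18.9 FPKM in Hdac3-deleted cells (-0.23 on the log2 scale, 95% interval -0.78 to 0.32). Sirt6 and Sirt7, also nuclear, were 11.8 and 14.4 FPKM and 51.8 and 53.1 FPKM. Sirt2, mostly cytoplasmic, was 27.2 and 32.1 FPKM. The deposited locus of Sirt2 is shared with Gm19897, at 2.37 and 2.32 FPKM. Exon bases are shared with another gene for Sirt2 (42 with Nfkbib) and Sirt7 (124 with Mafg), as they are among the writers for Ncoa3 (154 with Sulf2).

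Sirt3, Sirt4 and Sirt5 are the mitochondrial sirtuins, and 2 of them were the least abundant of all 35 genes. Sirt4 was 4.38 FPKM in wild-type against 6.22 FPKM in Hdac3-deleted cells, a log2 fold change of 0.51 (-0.23 to 1.25, p = 0.053 and q = 0.303 in the authors' deposited table). Sirt5, which removes succinyl and malonyl groups, was 3.75 and 3.91 FPKM. Sirt3, the main mitochondrial deacetylase, was 13.9 and 18.1 FPKM with an interval of -0.84 to 1.60, which includes a 3.03-fold increase. The Sirt3 locus is shared with Ric8, and its exons share 342 bases with the opposite-strand gene Psmd13, at 75.0 and 64.3 FPKM. In wild-type cells the order from high to low was Sirt7, Sirt2, Sirt1, Sirt3, Sirt6, Sirt4 and Sirt5, with a Sirt7 to Sirt5 ratio of 13.8 in wild-type against 13.6 in Hdac3-deleted cells. The order was the same in Hdac3-deleted cells, and without a spread between libraries no neighbours in it could be compared.

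Sin3a, Sin3b and Rcor1 are scaffolds of complexes built around the deacetylases Hdac1 and Hdac2. None was called in the Cuffdiff test, beside 6.95% of all tested entries, and 0 by the normal approximation, beside 3.71%. An unadjusted p under 0.05 was found for 0, beside 17.1% of entries with a finite fold change. Among 3 genes, counts of 0 are near these shares. Sin3b was the more abundant Sin3 gene, at 71.4 and 73.1 FPKM in wild-type and Hdac3-deleted cells, beside 35.4 and 34.5 FPKM for Sin3a. Their ratio was 2.01 and 2.12. Rcor1, the CoREST protein that ties Hdac1 and Hdac2 to the demethylase Kdm1a, was 30.6 and 26.4 FPKM, a log2 fold change of -0.21 (-0.71 to 0.28).

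Genes that work with these 35 were followed through 6 lists of 138 genes, of which 132 were tested. Of the 132, 1 rose and 1 fell, or 1.52% against 6.95% of all tested entries. Both were NAD-consuming enzymes, from a list of 11 tested genes, of which they are 18.2%. Bst1 (CD157), a surface enzyme that cleaves NAD, rose 2.06-fold from 32.6 to 67.2 FPKM (q = 0.0016). Cd38, its relative with a like activity, fell 1.80-fold from 35.9 to 20.0 FPKM (q = 0.0016). Both are also surface markers whose level differs between blood cell types, and the part of the lower myeloid markers and higher B-lineage markers in these differences was not tested. Parp1, another NAD consumer, was 112 and 133 FPKM, and Nampt, the main enzyme of NAD salvage, was 27.1 and 24.4 FPKM. Neither passed the test, and both were chosen after their values were seen. The median log2 fold change of the 11 tested NAD genes was -0.15.

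In the other 5 lists Cuffdiff and the normal approximation called 0 genes, beside 6.95% and 3.71% of all tested entries. The share with an unadjusted p under 0.05 ran from 4% to 15.4% across these lists. Of the 12643 tested entries with a finite fold change, 17.1% had such a p and 53.5% a positive fold change. The 20 other acetyltransferases had a median log2 fold change of 0.02, with 2 at an unadjusted p under 0.05, and were led by Naa50, at 71.7 and 53.8 FPKM, and Naa10, at 63.7 and 57.0 FPKM. Both are protein N-terminal acetyltransferases. The 26 tested genes listed as other bromodomain and YEATS readers, among them the PHD finger gene Dpf2, had a median of 0.11. Of these, 2 had an unadjusted p under 0.05. They were led by the SWI/SNF ATPase Smarca4, at 172 and 214 FPKM, and by Sp100, at 104 and 137 FPKM. The 37 non-catalytic acetyltransferase subunits had a median of 0.03, with 2 at an unadjusted p under 0.05. Their most abundant genes were Morf4l1, at 112 and 115 FPKM, and Morf4l2, at 107 and 86.8 FPKM. The 25 partners of Sin3 and CoREST had a median of 0.07, with 1 at an unadjusted p under 0.05, led by the histone chaperones Rbbp7 and Rbbp4, the latter at 124 and 108 FPKM. The 13 genes of acetyl-CoA supply had a median of -0.13, with 2 at an unadjusted p under 0.05 and 10 of 13 negative. Pdhb, a pyruvate dehydrogenase subunit, was 102 and 80.0 FPKM, and the citrate synthase Cs 94.9 and 79.2 FPKM.

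**Figure D3:**
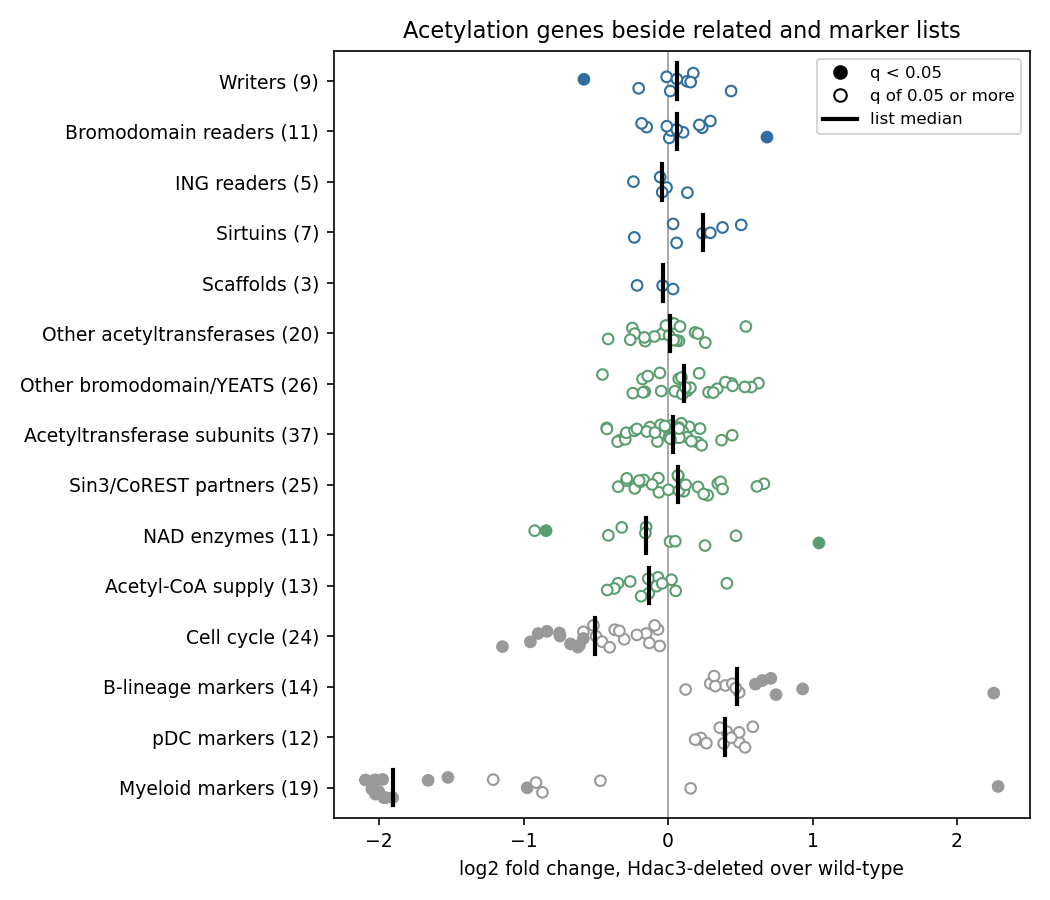
Log2 fold change, Hdac3-deleted over wild-type, of every tested gene in the 5 classes of acetylation genes (blue), 6 related lists (green) and 4 lists of cell-cycle genes and cell type markers (grey), with list medians as black bars and filled points for called genes. Medians of the acetylation classes lie between -0.04 and 0.24, beside -0.51 for cell-cycle genes, 0.48 for B-lineage markers, 0.40 for plasmacytoid dendritic cell (pDC) markers and -1.91 for myeloid markers.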

How the data were processed

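Polyadenylated RNA was measured in 4 libraries, 2 per genotype, grouped by the labels. Per the submitters' processing notes, Trimmomatic 0.32, TopHat2 2.0.11 and Cuffdiff 2.1.1 were used with mm10; the sources used here do not state options, annotation or scaling. Per the file headers, the deposited table holds 1 FPKM per gene and genotype, Cuffdiff's test statistic (a score) and the authors' p-value and q-value. The smallest p-value is 5e-05. Nothing says which libraries were prepared together, and the p-values come from the authors' model, fitted to 2 pooled libraries per genotype.

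Fold changes were recomputed from the FPKM values without a pseudocount. Standard errors are the log2 fold change divided by the test statistic, and intervals are normal. Intervals and adjustment were run on data simulated with these same standard errors. That checks the code and cannot show whether the standard errors fit these libraries. Normal p-values and deposited p-values differ, so an interval and a call can disagree. Members and lists were chosen with earlier results of these data known, and list counts are descriptions without a set test. A gene of the bromodomain list is not reported here. All 35 members are named; of each related list, every called gene, or else the 2 with the highest mean. Older symbols were matched through the RefSeq annotation for 13 listed genes. Positions count from 1. Alternatives varied the q threshold, the test, a minimum fold, a minimum of 1 FPKM, centring, a pseudocount of 1 FPKM and entries with a locus of their own. The software was Python 3.11.15 with matplotlib 3.10.9, scipy 1.17.1, numpy 2.4.6 and pandas 2.3.3.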

Additional observations from a re-analysis of the deposited data

How the results depend on the processing

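The count of 2 called acetylation genes fell to 0 at a q under 0.01 and to 0 with the normal approximation, as did the writers (1 to 0) and the bromodomain readers (1 to 0). With a minimum of 1.5-fold it was 1, because Hat1, at 1.498-fold, dropped out and left 0 writers. It stayed at 2 at a q under 0.1, with a minimum of 1 FPKM, and among entries with a locus of their own, which left 32 of the 35 genes. The related lists had 5 called genes at a q under 0.1 in place of 2, the added ones being Cecr2, Baz2a and Ogt. Centring on the median entry turned the sign of Kat2b to -0.0112, of Brd8 to -0.0182 and of Brpf1 to -0.0071, which left 19 genes with a higher Hdac3-deleted value in place of 22. A pseudocount of 1 FPKM reversed none of the 35. No paired analysis was possible because the table holds 1 value per genotype, and for the same reason no library could be left out. The depth of the libraries is unknown.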
